A study of Mus musculus with 11 samples.

Results

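The genes described here are 40 genes of endoplasmic reticulum (ER) folding and secretory export, measured in the distal tibia of mice with and without ablation of bone marrow (BM) adipocytes. They were chosen by name, from lists of ER chaperones, unfolded protein response genes and COPII or COPI transport genes, and no cut on their values was used. Earlier results of these data were known when the choice was made. Of the 40, 39 had a row among the 22600 genes of the merged count table, and all of those 39 passed the filter on low counts. Pdia6 has no row in the merged table used here and was read from the per-library counts.

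Whole distal tibiae of 24-week-old C57BL6/SJL mice fed ad libitum were the source of 11 strand-specific mRNA libraries, each from a single animal, 4 of them Control (genotype label BMAd-WT) and 7 BMAd-DTA. By the methods of the study both groups, the Control mice included, carry Osterix-FLPo and FAC, an Adipoq-Cre that works only after FLPo recombination, so that Cre is made mainly in BM adipocytes. The BMAd-DTA mice carry in addition ROSA-DTA, in which diphtheria toxin A follows a LoxP-flanked STOP cassette, and the toxin stops protein synthesis in the cells that make it. A limit of the model is that Cre can act in any cell in which both promoters have been active, and the labels do not give the ROSA-DTA allele of each Control mouse. The bone was powdered whole, so every level below is an average over bone cells, marrow and adherent tissue, in which fewer cells of a type and less RNA per cell cannot be told apart.

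Secreted and membrane proteins enter the ER through the SEC61 translocon, are folded there by chaperones, lectins and disulfide isomerases, and leave in COPII-coated vesicles, while COPI-coated vesicles carry escaped ER proteins back with the help of KDEL receptors. Misfolded protein in the ER activates the sensors ATF6, IRE1 (Ern1) and PERK, whose transcriptional output, the unfolded protein response, raises chaperone and degradation genes. In bone, the main cargo is type I collagen, and the ER-anchored factor CREB3L1 (OASIS) is known for its role in osteoblasts that make bone matrix.

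The merged counts held 16969529 to 18637663 read pairs per library, and levels are given as CPM, the counts divided by the TMM-scaled library size. The distal tibiae showed the defining genes of bone and marrow. The summed level of 11 osteoblast and osteocyte markers (Col1a1, Col1a2, Bglap, Bglap2, Sp7, Alpl, Ibsp, Runx2, Dmp1, Phex and Mepe) was 2931 to 13054 CPM in Control and 15422 to 36208 CPM in BMAd-DTA libraries. All 11 had a log2 fold change above 0 and Alpl passed the edgeR test (adjusted p = 0.0326). DESeq2 called 8 of the 11, or 72.7%, beside 5.42% of all genes it tested. The 8 chondrocyte markers summed to 166 to 323 CPM in Control and 465 to 640.0 CPM in BMAd-DTA libraries, with all 7 that were tested above 0 and none past the edgeR test, and DESeq2 called Col2a1 (adjusted p = 1.82e-05). Col2a1 made up most of that sum, with means of 217 CPM in Control and 468 CPM in BMAd-DTA libraries. Each of the other chondrocyte markers overlapped between the groups. The 11 plasma cell markers, from the marrow's most specialised secretory cell, summed to 11028 to 43140 CPM in Control and 21345 to 45366 CPM in BMAd-DTA libraries, with 9 above 0 and none past the test. The 9 adipocyte markers summed to 699 to 1473 CPM and 256 to 915 CPM, and all 9 lay below 0, with Retn past the edgeR test (adjusted p = 0.0205). The 10 skeletal muscle markers ranged from 17.5 to 1279 CPM in Control and from 19.3 to 994 CPM in BMAd-DTA libraries.

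The promoters of many of these genes carry short elements by which the unfolded protein response is known to act, and they are shown as the letters through which the sensors among the members are known to reach such genes. RefSeq promoters on GRCm38.p6, from 250 bases before to 50 bases after each start, were held for 33 of the 40 genes and for 27025 genes in all. The ER stress response element, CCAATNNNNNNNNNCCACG, to which NF-Y and ATF6 bind, was found on either strand in 8 of the 33 members and in 0.137% of all genes with a promoter. The members were Hspa5, Hsp90b1, Calr, Canx, Creld2, Dnajc3, Pdia6 and Syvn1. Below, capitals mark the fixed letters of the motif and the strand is that on which the motif reads as given.
Hspa5, chr2:34772020-34772048, + strand: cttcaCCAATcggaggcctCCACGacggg
Hsp90b1, chr10:86705528-86705556, + strand: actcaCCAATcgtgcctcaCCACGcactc
Hsp90b1, chr10:86705633-86705661, - strand: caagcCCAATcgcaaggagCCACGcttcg
Calr, chr8:84847070-84847098, + strand: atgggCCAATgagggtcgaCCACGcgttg
Canx, chr11:50325795-50325823, - strand: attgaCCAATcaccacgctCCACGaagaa
Dnajc3, chr14:118937822-118937850, + strand: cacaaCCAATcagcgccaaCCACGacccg
Creld2, chr15:88819515-88819543, - strand: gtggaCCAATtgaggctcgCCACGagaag
Syvn1, chr19:6046527-6046555, + strand: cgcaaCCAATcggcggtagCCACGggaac

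A second form, ERSE-II, spelled ATTGGNCCACG, was found in Dnajb11 and Herpud1 and in 0.0444% of all genes. The CRE-like core TGACGTGG, which is also the core of the unfolded protein response element and is known to be bound by XBP1, ATF6 and CREB3-family factors, was found in 4 of the 33 members, Kdelr3, Sec24d, Sec23a and Copb1, and in 0.714% of all genes. Its reverse complement begins with CCACG, the 3′ part of ERSE, but no member held both motifs. Sec16b, a COPII scaffold gene outside the 40, is shown with them. Neither motif is limited to 1 step of the pathway: in the wider list, TGACGTGG was also found in the folding enzyme gene Txndc5 and the degradation genes Ube2j1 and Vcp, and ERSE in the degradation gene Derl3. The motifs of Sec23a and Dnajb11 begin just after the RefSeq start, in transcribed sequence, and the others shown lie before it. By the GENCODE M21 gene positions, the motifs of Hspa5, Sec24d, Sec16b and Copb1 also lie within the gene.
Dnajb11, chr16:22857843-22857871, + strand: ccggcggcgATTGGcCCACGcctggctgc
Herpud1, chr8:94386368-94386396, + strand: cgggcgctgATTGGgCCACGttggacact
Kdelr3, chr15:79516367-79516396, - strand: tggccgcgcggTGACGTGGcggggcggcca
Sec24d, chr3:123267459-123267488, + strand: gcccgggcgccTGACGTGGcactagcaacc
Sec23a, chr12:59011993-59012022, - strand: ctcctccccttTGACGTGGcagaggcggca
Copb1, chr7:114254690-114254719, + strand: aagtccttggcTGACGTGGaagggggcggg
Sec16b, chr1:157506741-157506770, + strand: ttctgtgtggcTGACGTGGcacggcagttt

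No member passed the edgeR quasi-likelihood test between BMAd-DTA and Control at an adjusted p under 0.05. The smallest adjusted p among them was 0.0675. The test called 13 of 16496 genes, or 0.0788%. DESeq2 called 4 of the 39 members, Creb3l1, Kdelr3, Kdelr2 and Sec31a, where it called 5.42% of all genes it tested, and limma-voom called none. At an unadjusted edgeR p under 0.05, 7 members were higher in BMAd-DTA, where 7.89% of all genes were, and 2 were lower, where 8.53% of all genes were. Every BMAd-DTA library lay above every Control library for 2 members, Kdelr3 and Kdelr2, and for 1.78% of all genes. A log2 fold change above 0 was fitted for 25 of the 39 members, or 64.1%, and for 50.4% of all genes. The median log2 fold change of the members was 0.077, beside 0.0018 over all genes tested.

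By step of the pathway the counts were as follows. Among the 13 chaperones, lectins and isomerases of the folding machinery, 3 had a log2 fold change above 0 and 10 below, with a median of -0.055, and none of their 95% confidence intervals reached beyond -0.39 or 0.27. Among the other 26 members, 22 lay above 0 and 4 below, with a median of 0.11. All 7 COPII members, all 4 cargo and retrieval receptors and both COPI members were above 0. The summed level of the folding members was 2834 to 3442 CPM in Control and 2799 to 3366 CPM in BMAd-DTA libraries. The summed level of the other members was 2721 to 3032 CPM in Control and 2843 to 3323 CPM in BMAd-DTA libraries. Both pairs of ranges overlapped, and the difference between the parts of the pathway was not tested.

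**Figure D1:**
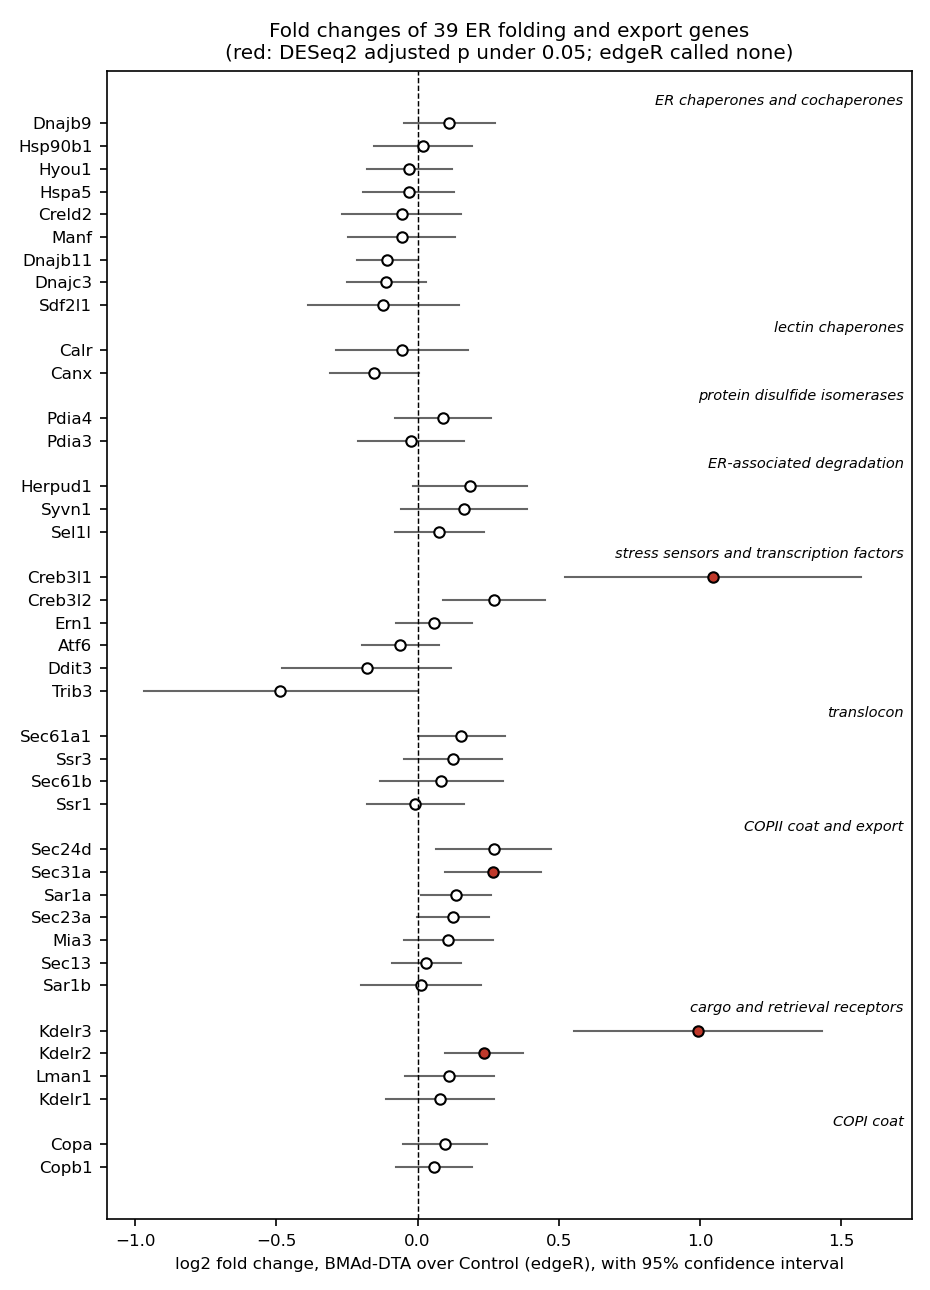
Each point is the edgeR log2 fold change of BMAd-DTA over Control for 1 of 39 members, on the horizontal axis, with its 95% confidence interval as a line, grouped by role on the vertical axis, and red points had a DESeq2 adjusted p under 0.05. Creb3l1 at 1.04 and Kdelr3 at 0.99 stand apart on the right, while the 13 folding genes lie between -0.15 and 0.11.

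The 4 most abundant members per kilobase of exon were folding genes, and their levels lay close together in both groups. Hspa5 encodes BiP, the Hsp70 chaperone of the ER that also holds the stress sensors inactive (ENSMUSG00000026864.13, chr2:34771970-34777547, + strand, mm10). It was measured at 430.1, 399, 431 and 486 CPM in Control replicates 1 to 4, and the BMAd-DTA libraries ran from 395 to 491 with a median of 420.4 CPM. The groups overlapped and the log2 fold change was -0.032 (SE 0.075, edgeR adjusted p = 0.879), with a 95% confidence interval of -0.19 to 0.13. Hsp90b1, the ER Hsp90 (GRP94), was at 427, 453, 454 and 533 CPM in Control replicates 1 to 4, and the BMAd-DTA libraries ran from 423 to 542 with a median of 462 CPM. Its log2 fold change was 0.018 (SE 0.08, edgeR adjusted p = 0.942), and the Control library with the highest level, replicate 4, lay just below BMAd-DTA replicate 1, the highest of all. Dnajb11, an Hsp40 cochaperone of BiP, was the folding gene with the lowest unadjusted p. Its level was 85.0, 79.7, 81.0 and 86.6 CPM in Control replicates 1 to 4, and the BMAd-DTA libraries ran from 74.7 to 80.2 with a median of 77.0 CPM. In 6 of 7 BMAd-DTA libraries it was below every Control library, at a log2 fold change of -0.11 (SE 0.049, edgeR adjusted p = 0.3), which did not pass the test. The other 6 chaperones and cochaperones, Hyou1, Dnajb9, Dnajc3, Sdf2l1, Manf and Creld2, had log2 fold changes from -0.12 to 0.11, with 1 above 0 and adjusted p of at least 0.425.

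Calreticulin and calnexin, the lectins that hold glycoproteins in the folding cycle, are a soluble protein of the lumen and its membrane-bound relative. Per kilobase of exon, Calr was the most abundant of the 39 members, with a mean of 274 CPM per kb, followed by Pdia3 at 122, Hsp90b1 at 117 and Hspa5 at 102 CPM per kb. Calr was at 936, 689.7, 684 and 920.4 CPM in Control replicates 1 to 4, and the BMAd-DTA libraries ran from 673 to 886 with a median of 755 CPM. Control replicates 1 and 4 were higher than every BMAd-DTA library, and the log2 fold change was -0.055 (SE 0.11, edgeR adjusted p = 0.85). For Canx the values were 360.2, 295, 286 and 344 CPM in Control replicates 1 to 4, and the BMAd-DTA libraries ran from 267 to 309 with a median of 291 CPM. The log2 fold change was -0.15 (SE 0.073, edgeR adjusted p = 0.319), the lowest among the folding genes, with an interval of -0.31 to 0.0051 and 3 of 7 BMAd-DTA libraries below every Control library.

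The protein disulfide isomerases form and reshuffle disulfide bonds, and Pdia3 (ERp57) works together with the lectins. Pdia3 was at 418, 345, 334 and 449 CPM in Control replicates 1 to 4, and the BMAd-DTA libraries ran from 356 to 422 with a median of 370.1 CPM. All 7 BMAd-DTA libraries lay within the Control range, at a log2 fold change of -0.025 (SE 0.087, edgeR adjusted p = 0.924). Pdia4 (ERp72) was at 104, 104, 108 and 111 CPM in Control replicates 1 to 4, and the BMAd-DTA libraries ran from 99.8 to 134 with a median of 109 CPM. It overlapped between groups and its log2 fold change was 0.09 (SE 0.079, edgeR adjusted p = 0.628). Pdia6, read from the per-library counts with the fit repeated on them, was at 148, 143, 138 and 177 CPM in Control replicates 1 to 4 and at 123 to 174 CPM in BMAd-DTA libraries, with a log2 fold change of -0.06 (SE 0.096, edgeR adjusted p = 0.813).

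**Figure D2:**
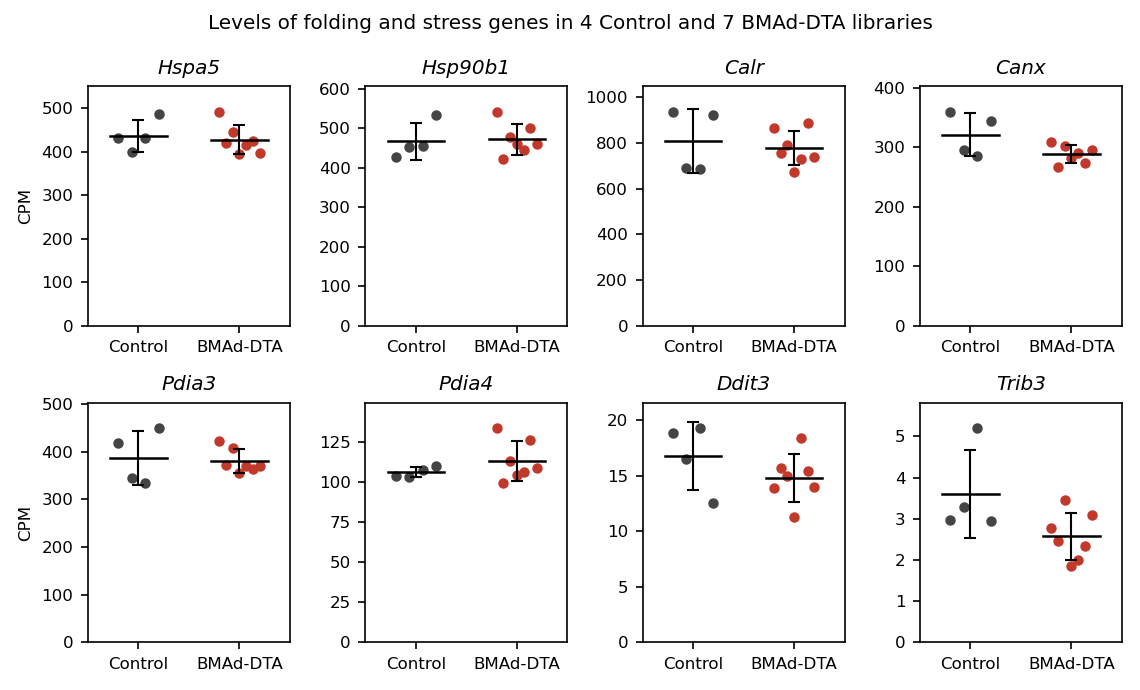
Points are the CPM of single libraries (vertical axes, starting at 0) in 4 Control and 7 BMAd-DTA libraries for Hspa5, Hsp90b1, Calr, Canx, Pdia3, Pdia4, Ddit3 and Trib3, with the group mean as a line and the SD as a bar. The groups overlap in all 8 panels, and the single high Trib3 point is Control replicate 3 at 5.20 CPM.

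The members of ER-associated degradation, which returns misfolded proteins to the cytosol, were Herpud1, Sel1l and Syvn1 (the ligase HRD1 that SEL1L holds). Herpud1, an adaptor of the ligase and a known target of the unfolded protein response, was at 126, 155, 160.5 and 154 CPM in Control replicates 1 to 4, and the BMAd-DTA libraries ran from 142 to 192 with a median of 179 CPM. In 4 of 7 BMAd-DTA libraries it was above every Control library, and the log2 fold change was 0.19 (SE 0.093, edgeR adjusted p = 0.34). Sel1l and Syvn1 had log2 fold changes of 0.077 and 0.16, with adjusted p of at least 0.461.

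Of the stress sensors, Atf6 and Ern1 lay near their Control levels. Atf6, the membrane-bound factor released by cleavage in the Golgi, was at 97.7, 92.4, 88.6 and 100.1 CPM in Control replicates 1 to 4, and the BMAd-DTA libraries ran from 82.6 to 98.2 with a median of 92.5 CPM, with a log2 fold change of -0.061 (SE 0.064, edgeR adjusted p = 0.694). Ern1 encodes IRE1, the kinase and RNase that splices Xbp1. It was at 69.5, 81.1, 73.6 and 74.4 CPM in Control replicates 1 to 4, and the BMAd-DTA libraries ran from 70.8 to 84.1 with a median of 77.3 CPM, with a log2 fold change of 0.058 (SE 0.062, edgeR adjusted p = 0.703). Gene counts do not show the cleavage of ATF6 or the splicing of Xbp1, so they measure the amount of these transcripts and not the activity of the sensors. The groups overlapped for both genes.

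Ddit3 (CHOP) and Trib3, a pseudokinase gene that CHOP and ATF4 induce, are targets of the PERK branch. Ddit3 was at 18.8, 16.5, 19.3 and 12.5 CPM in Control replicates 1 to 4, and the BMAd-DTA libraries ran from 11.3 to 18.4 with a median of 14.9 CPM, with a log2 fold change of -0.18 (SE 0.14, edgeR adjusted p = 0.565). Trib3 was the lowest of all members, with a mean of 1.39 CPM per kb. It was at 2.98, 3.30, 5.20 and 2.96 CPM in Control replicates 1 to 4, and the BMAd-DTA libraries ran from 1.86 to 3.46 with a median of 2.46 CPM. In 5 of 7 BMAd-DTA libraries it lay below every Control library. The log2 fold change was -0.49 (SE 0.22, edgeR adjusted p = 0.302), which did not pass the test, and its size rests in part on Control replicate 3, without which it was -0.25.

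The CREB3-like factors are ER-anchored transcription factors that, once cleaved, are known to activate genes of secretion. Creb3l1 (ENSMUSG00000027230.9, chr2:91982328-92024502, - strand, mm10) had the highest log2 fold change of the members. It was at 22.0, 37.2, 52.1 and 31.7 CPM in Control replicates 1 to 4, and the BMAd-DTA libraries ran from 48.8 to 103 with a median of 76.8 CPM. In 6 of 7 BMAd-DTA libraries it was above every Control library, and the exception, replicate 7 at 48.8 CPM, lay just below Control replicate 3 at 52.1 CPM. The means were 35.7 ± 12.6 CPM (SD, n = 4) in Control and 73.7 ± 19.9 CPM (SD, n = 7) in BMAd-DTA libraries, at a log2 fold change of 1.04 (SE 0.24, edgeR adjusted p = 0.0724) with an interval of 0.52 to 1.57. DESeq2 gave it an adjusted p of 0.000614. With Control replicate 3 left out the edgeR adjusted p was 0.039 at a log2 fold change of 1.28. With Control replicate 1 left out it was 0.234 at 0.87. The summed osteoblast and osteocyte markers were higher in every BMAd-DTA library than in any Control library. So was the chondrocyte sum, which is mostly Col2a1. The part of these sums in the values of Creb3l1, Creb3l2, Kdelr3 and the COPII members was not tested. Creb3l2, which is known to act on COPII genes in cartilage, was at 58.9, 66.7, 71.6 and 65.0 CPM in Control replicates 1 to 4, and the BMAd-DTA libraries ran from 67.5 to 93.2 with a median of 77.4 CPM. It lay above every Control library in 6 of 7 BMAd-DTA libraries, at a log2 fold change of 0.27 (SE 0.084, edgeR adjusted p = 0.133).

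The translocon members form the channel for nascent chains and its partner complex. Sec61a1, the channel itself, was at 177, 181, 177 and 194 CPM in Control replicates 1 to 4, and the BMAd-DTA libraries ran from 179 to 224 with a median of 199.6 CPM. In 5 of 7 BMAd-DTA libraries it was above every Control library, and the log2 fold change was 0.16 (SE 0.072, edgeR adjusted p = 0.305). Ssr3, a subunit of the translocon-associated TRAP complex and the most abundant translocon member at 70.7 CPM per kb, was at 280.2, 264, 265 and 306 CPM in Control replicates 1 to 4, and the BMAd-DTA libraries ran from 251 to 329.8 with a median of 302 CPM. The groups overlapped and the log2 fold change was 0.13 (SE 0.08, edgeR adjusted p = 0.466). Sec61b and Ssr1 had log2 fold changes of 0.084 and -0.0083, with adjusted p of at least 0.736.

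The COPII coat buds vesicles from the ER: SAR1 starts the coat, SEC23 and SEC24 form its inner layer and bind cargo, and SEC13 and SEC31 its outer cage. All 7 members had a log2 fold change above 0, from 0.013 to 0.27. Sec31a (ENSMUSG00000035325.16, chr5:100361649-100416234, - strand, mm10), the cage subunit, was at 188, 201, 218 and 229 CPM in Control replicates 1 to 4, and the BMAd-DTA libraries ran from 218 to 277 with a median of 254 CPM. In 6 of 7 BMAd-DTA libraries it was above every Control library, and only replicate 5 lay within the Control range. Its log2 fold change was 0.27 (SE 0.079, edgeR adjusted p = 0.119), with a DESeq2 adjusted p of 0.0376. Sec24d, a cargo-binding subunit known for a part in collagen export, was at 50.4, 56.5, 62.9 and 66.7 CPM in Control replicates 1 to 4, and the BMAd-DTA libraries ran from 59.5 to 81.6 with a median of 71.2 CPM. Again 6 of 7 BMAd-DTA libraries were above every Control library, at a log2 fold change of 0.27 (SE 0.094, edgeR adjusted p = 0.173). Sar1a, the GTPase, was at 85.1, 88.7, 81.4 and 88.2 CPM in Control replicates 1 to 4, and the BMAd-DTA libraries ran from 86.6 to 101 with a median of 93.9 CPM, and 6 of 7 were above every Control library. Its log2 fold change was 0.14 (SE 0.057, edgeR adjusted p = 0.255).

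Mia3 (TANGO1) loads bulky cargo such as procollagen into COPII carriers. It was at 109.6, 122, 144 and 140.2 CPM in Control replicates 1 to 4, and the BMAd-DTA libraries ran from 135 to 149.6 with a median of 136 CPM. Of the BMAd-DTA libraries 1 was above every Control library and the others lay inside the Control range, and the log2 fold change was 0.11 (SE 0.073, edgeR adjusted p = 0.493). Sec13, Sec23a and Sar1b had log2 fold changes from 0.013 to 0.13, with adjusted p of at least 0.311.

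The retrieval receptors return chaperones that carry a KDEL signal from the Golgi to the ER, and 3 genes encode them. Kdelr3 (ENSMUSG00000010830.8, chr15:79516411-79527739, + strand, mm10) was at 7.22, 12.1, 13.8 and 9.18 CPM in Control replicates 1 to 4, and the BMAd-DTA libraries ran from 13.9 to 29.4 with a median of 20.7 CPM. Every BMAd-DTA library was above every Control library, though BMAd-DTA replicate 7 at 13.9 CPM exceeded Control replicate 3 at 13.8 CPM by little. The means were 10.6 ± 2.93 CPM (SD, n = 4) in Control and 21.0 ± 4.71 CPM (SD, n = 7) in BMAd-DTA libraries, at a log2 fold change of 0.99 (SE 0.20, edgeR adjusted p = 0.0675) with an interval of 0.55 to 1.43. The DESeq2 adjusted p was 0.000206, and the edgeR adjusted p ran from 0.039 without Control replicate 3 to 0.234 without Control replicate 1.

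Kdelr2 (ENSMUSG00000079111.3, chr5:143403838-143421901, + strand, mm10) was at 82.4, 80.0, 84.5 and 79.1 CPM in Control replicates 1 to 4, and the BMAd-DTA libraries ran from 84.8 to 106 with a median of 97.3 CPM. Its groups did not overlap either, by 84.8 against 84.5 CPM at the closest, with a log2 fold change of 0.23 (SE 0.064, edgeR adjusted p = 0.106) and a DESeq2 adjusted p of 0.0335. Kdelr1 was the most abundant receptor, at 66.1 CPM per kb beside 49.5 for Kdelr2 and 12.2 for Kdelr3. It was at 127, 122, 108 and 121 CPM in Control replicates 1 to 4, and the BMAd-DTA libraries ran from 112 to 155 with a median of 122 CPM. The groups overlapped and the log2 fold change was 0.079 (SE 0.089, edgeR adjusted p = 0.718). Lman1 (ERGIC-53), a lectin that carries glycoproteins forward, lay at 0.11 on the log2 scale of change (edgeR adjusted p = 0.473).

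The COPI coat brings these receptors back. Copa, its largest subunit, was at 338, 361, 342 and 390.4 CPM in Control replicates 1 to 4, and the BMAd-DTA libraries ran from 338 to 412 with a median of 389 CPM. The log2 fold change was 0.10 (SE 0.069, edgeR adjusted p = 0.528), with overlapping groups, and that of Copb1 was 0.057 (edgeR adjusted p = 0.706).

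**Figure D3:**
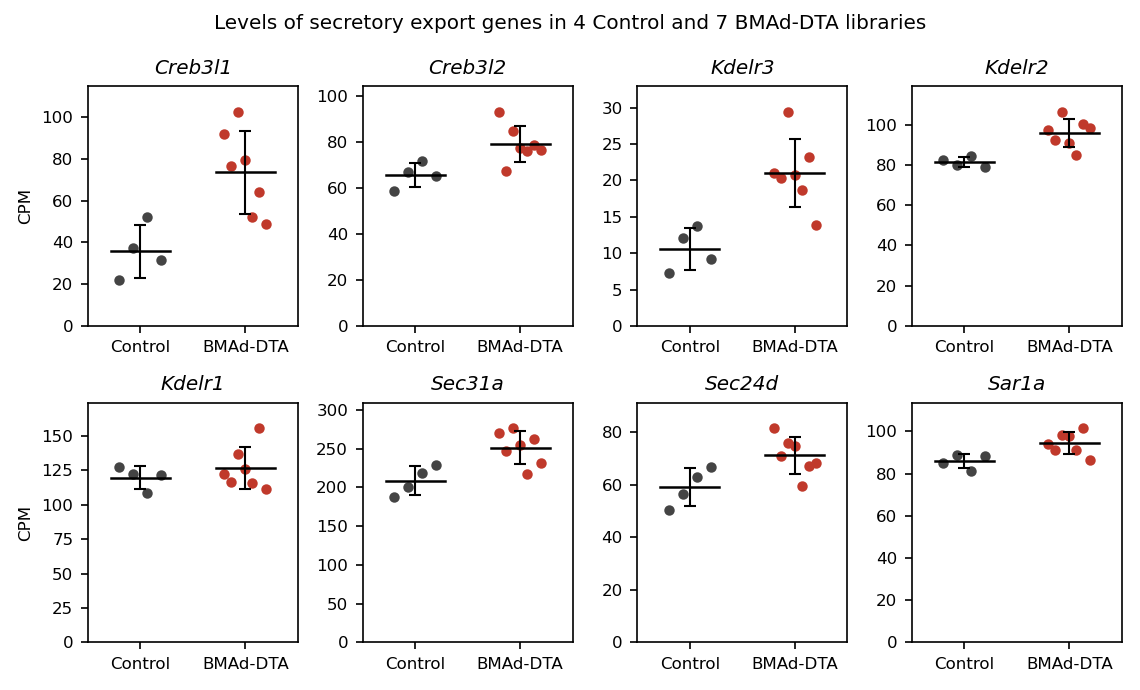
Points are the CPM of single libraries (vertical axes, starting at 0) in 4 Control and 7 BMAd-DTA libraries for Creb3l1, Creb3l2, Kdelr3, Kdelr2, Kdelr1, Sec31a, Sec24d and Sar1a, with the group mean as a line and the SD as a bar. The groups are apart for Kdelr3 (7.22 to 13.8 against 13.9 to 29.4 CPM) and Kdelr2 (79.1 to 84.5 against 84.8 to 106 CPM) and overlap in the other 6 panels.

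Genes of 1 family measured in the same library can be set against each other by their log2 ratio, from which the scaling of the library cancels. The 15 pairs were chosen after the values were seen and are given as a description. The log2 ratio of Kdelr3 to Kdelr1 was -3.54 ± 0.50 (SD, n = 4) in Control and -2.61 ± 0.24 (SD, n = 7) in BMAd-DTA libraries, and that of Kdelr3 to Kdelr2 was -2.99 ± 0.41 (SD, n = 4) in Control and -2.22 ± 0.30 (SD, n = 7) in BMAd-DTA libraries. In each, 6 of 7 BMAd-DTA libraries lay above every Control library. Kdelr2 to Kdelr1 was at -0.55 ± 0.13 (SD, n = 4) in Control and -0.39 ± 0.14 (SD, n = 7) in BMAd-DTA libraries, with 3 of 7 above. The ratio of Creb3l1 to Creb3l2 was -0.94 ± 0.40 (SD, n = 4) in Control and -0.14 ± 0.36 (SD, n = 7) in BMAd-DTA libraries, with 5 of 7 above. Sec24d was compared with its paralogs Sec24a, Sec24b and Sec24c. Its log2 ratio to Sec24a was 0.90 ± 0.11 (SD, n = 4) in Control and 1.25 ± 0.13 (SD, n = 7) in BMAd-DTA libraries, and its ratios to Sec24a and Sec24c were higher in 7 of 7 BMAd-DTA libraries than in any Control library, that to Sec24b in 5 of 7. The ratio of Atf6 to Atf6b was 0.22 ± 0.026 (SD, n = 4) in Control and 0.073 ± 0.082 (SD, n = 7) in BMAd-DTA libraries, lower in 7 of 7 BMAd-DTA libraries than in any Control library. Sar1a to Sar1b differed by 0.11, Sec23a to Sec23b by 0.14 and Sec31a to Sec31b by 0.17 on the log2 scale between the group means, and these ratios overlapped between groups.

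**Figure D4:**
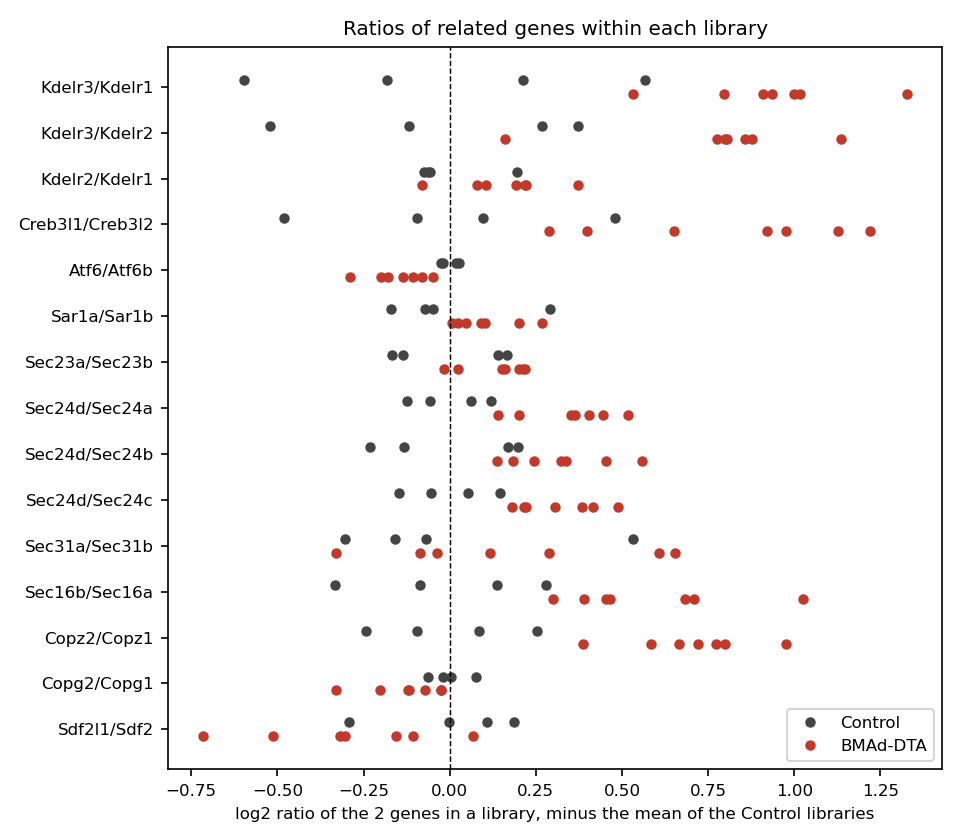
Each point is the log2 ratio of 2 related genes in 1 library, minus the mean of the Control libraries (horizontal axis), for 15 pairs in 4 Control (grey) and 7 BMAd-DTA (red) libraries. In 4 pairs (Sec24d/Sec24a, Sec24d/Sec24c, Sec16b/Sec16a and Copz2/Copz1) all red points lie to the right of all grey points, in Atf6/Atf6b all lie to the left, and the other 10 pairs overlap.

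The libraries within a group also differed from each other. For Creb3l1, Creb3l2, Kdelr3, Kdelr2, Sec31a, Sec24d and Mia3 the order of the libraries is set here beside the summed osteoblast and osteocyte markers. No rule set the choice of these 7 genes, and other members had other orders. Sar1a, not among them, was lowest in Control replicate 3 at 81.4 CPM and highest among Control libraries in replicate 2 at 88.7 CPM. Among Control libraries, replicate 1 had the lowest marker sum, 2931 CPM, and the lowest level of 6 of these 7 genes, while Kdelr2 was lowest in replicate 4. Control replicate 3 had the highest marker sum, 13054 CPM, and the highest level of 5 of the 7, while Sec31a and Sec24d were highest in replicate 4. Among BMAd-DTA libraries, replicate 3 had the highest marker sum, 36208 CPM, and the highest level of 5 of the 7. Creb3l2 and Sec24d were instead highest in BMAd-DTA replicate 1, at 93.2 and 81.6 CPM, and that library had the lowest marker sum of its group, 15422 CPM, with Creb3l1 at 91.9 and Sec31a at 270.4 CPM, each the next highest after replicate 3. Most of the marker sum is Col1a1 and Col1a2, which were lowest of the group in that library, as were Bglap and Bglap2. Runx2 was instead highest of the group there, at 138.5 CPM, and Sp7, Ibsp and Dmp1 were next highest after replicate 3. A sum of osteoclast and macrophage markers (Acp5, Ctsk, Mmp9, Oscar, Csf1r, Adgre1 and Mrc1) also differed between libraries. Among Control libraries it was lowest in replicate 1, at 1852 CPM, and highest in replicate 3, at 3410 CPM. Among BMAd-DTA libraries it was highest in replicate 3, at 5099 CPM, next in replicate 1, at 4540 CPM, and lowest in replicate 7, at 2301 CPM. The lowest levels in the BMAd-DTA group were in replicate 7 for Creb3l1 and Kdelr3, in replicate 5 for Kdelr2, Sec31a and Sec24d, in replicate 2 for Creb3l2 and in replicate 4 for Mia3. The osteoblast and osteocyte sum and the chondrocyte sum, which is mostly Col2a1, did not overlap between the groups. The plasma cell, adipocyte, skeletal muscle, and osteoclast and macrophage sums did overlap. The part of any of these sums in the values of the members was not tested. The plasma cell sum was highest in BMAd-DTA replicate 6 at 45366 CPM and in Control replicate 2 at 43140 CPM. With the skeletal muscle score as a covariate, the log2 fold change was 1.04 for Creb3l1 (edgeR adjusted p = 0.14) and 0.98 for Kdelr3 (edgeR adjusted p = 0.131).

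**Figure D5:**
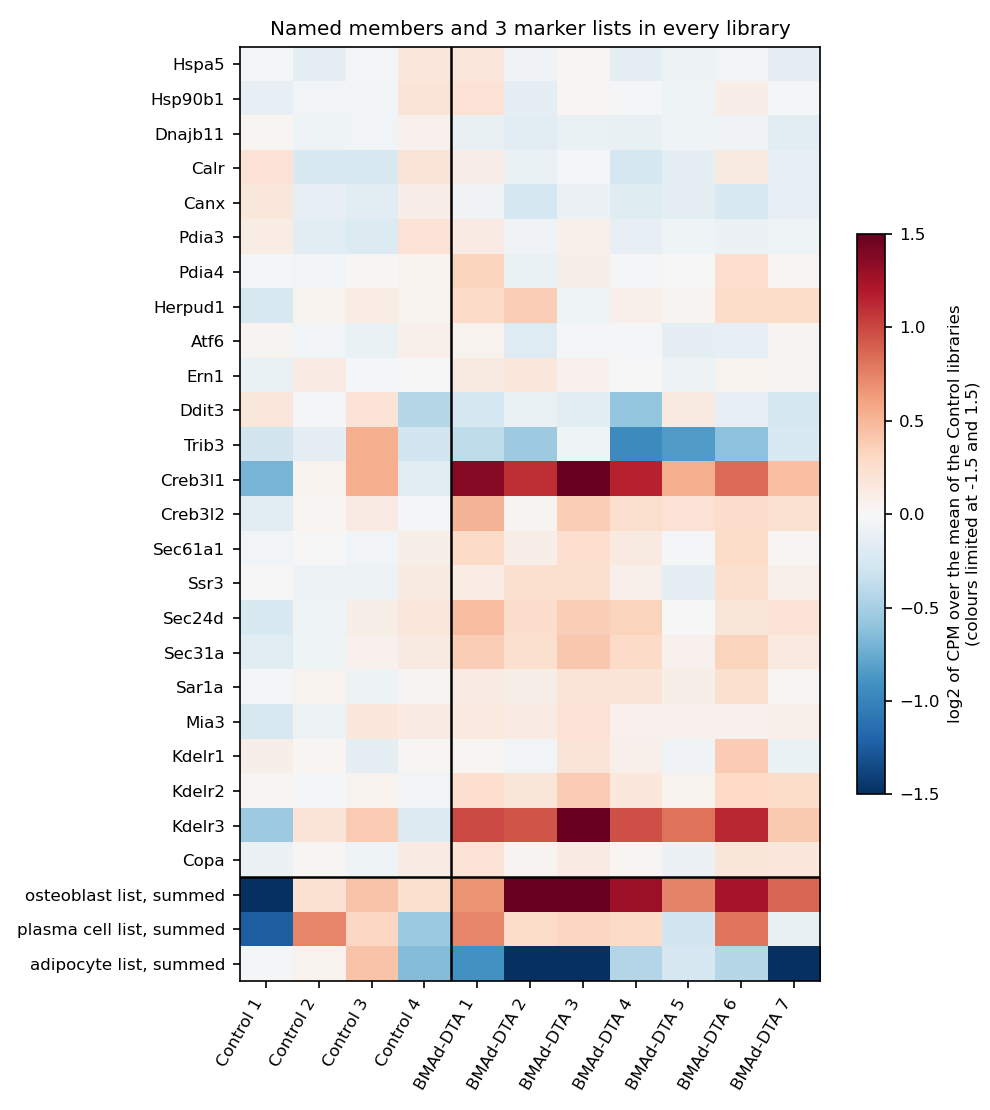
Colours give the log2 of the CPM over the mean of the 4 Control libraries for 24 members and for the summed osteoblast, plasma cell and adipocyte marker lists (rows) in 11 libraries (columns), limited at -1.5 and 1.5. The Creb3l1 and Kdelr3 rows are red in all 7 BMAd-DTA columns, blue in Control 1 and pale blue in Control 4, while the rows from Hspa5 to Pdia3 stay pale throughout.

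The genes behind the promoter motifs shown above had the following values. The 7 tested members with an ERSE had log2 fold changes from -0.15 to 0.16, with a median of -0.055, 2 above 0 and 5 below. Both genes of the wider list with an ERSE lay above 0, Derl3 at 0.47 and Ero1lb (Ero1b), an ER oxidase gene, at 0.13. The members with ERSE-II were Dnajb11 at -0.11 and Herpud1 at 0.19. The 4 members with TGACGTGG had log2 fold changes from 0.057 to 0.99, with a median of 0.20, and all 4 were above 0. In the wider list described next, 8 genes had TGACGTGG, 5 above 0 and 3 below, with a median of 0.066. No member of either group passed the edgeR test, and a match is a description of the letters and not a site of binding.

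Beyond the 40 genes, a wider list of 127 genes of the same pathway was read, of which 125 had a row in the merged table and 124 were tested. The edgeR test called 1 of them, Copz2, beside 0.0788% of all genes, and DESeq2 called 12, or 9.68%, beside 5.42% of all genes. A log2 fold change above 0 was fitted for 88, or 71.0%, beside 50.4% of all genes, and below 0 for 36, with a median of 0.074. At an unadjusted edgeR p under 0.05, 23, or 18.5%, were higher and 7 lower in BMAd-DTA, beside 7.89% and 8.53% of all genes. Copz2, the less common zeta subunit of the COPI coat (ENSMUSG00000018672.15, chr11:96849870-96861203, + strand, mm10), was at 20.0, 23.6, 25.2 and 20.4 CPM in Control replicates 1 to 4, and the BMAd-DTA libraries ran from 29.6 to 44.6 with a median of 37.2 CPM. It rose in BMAd-DTA, with all 7 libraries above every Control library, at a log2 fold change of 0.76 (SE 0.12, edgeR adjusted p = 0.0326). The log2 ratio of Copz2 to Copz1, the common subunit, was -2.63 ± 0.22 (SD, n = 4) in Control and -1.93 ± 0.18 (SD, n = 7) in BMAd-DTA libraries. The call was lost with either of Control replicates 1 and 2 or any of BMAd-DTA replicates 1 to 6 left out, at edgeR adjusted p from 0.0521 to 0.142, and with the muscle score as a covariate (edgeR adjusted p = 0.0679), while the log2 fold change stayed between 0.71 and 0.83.

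By role, 21 of the 27 further chaperones and folding enzymes lay above 0 (77.8%, beside 50.4% of all genes), with a median of 0.15, and DESeq2 called 9 of them (33.3%, beside 5.42% of all genes). These 9, named after their values were seen, were Serpinh1, Fkbp7, Fkbp9, Fkbp10, Fkbp11, Fkbp14, Calu, Rcn1 and Rcn3, all above 0. Serpinh1 encodes HSP47, a chaperone dedicated to collagen, and Fkbp10 encodes FKBP65, a prolyl isomerase that acts on procollagen. Fkbp10 had means of 71.1 ± 19.0 CPM (SD, n = 4) in Control and 135 ± 32.2 CPM (SD, n = 7) in BMAd-DTA libraries, with 7 of 7 libraries above every Control library and a log2 fold change of 0.92 (SE 0.20, edgeR adjusted p = 0.0676). Its edgeR adjusted p ran from 0.0458 without Control replicate 3 to 0.234 without Control replicate 1. Serpinh1 had means of 118 ± 29.0 CPM (SD, n = 4) in Control and 188 ± 29.1 CPM (SD, n = 7) in BMAd-DTA libraries and a log2 fold change of 0.67 (SE 0.16, edgeR adjusted p = 0.0724). The lowest of this role was Tmx1, a membrane-bound isomerase, at a log2 fold change of -0.20 (SE 0.065, edgeR adjusted p = 0.144). The 4 most abundant folding members, Hspa5, Hsp90b1, Calr and Pdia3, had log2 fold changes within 0.055 of 0. The 13 folding members ran from -0.15 to 0.11, and the difference between the lists was not tested. The osteoblast and osteocyte markers, Col1a1 and Col1a2 among them, lay above 0 in the same libraries, and their part in these values was not tested.

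The 26 further genes of the translocon, signal recognition and glycan transfer had a median of 0.064, with 20 above 0, from Srp72 at -0.15 (SE 0.06, edgeR adjusted p = 0.238) to Srprb, a subunit of the signal recognition particle receptor, at 0.28 (SE 0.11, edgeR adjusted p = 0.205). Of 15 further degradation genes 8 lay above 0, with a median of 0.043, from Nploc4 at -0.21 (SE 0.071, edgeR adjusted p = 0.166) to Derl3 at 0.47 (SE 0.35, edgeR adjusted p = 0.55). Derl3 was at 0.19 without Control replicate 1 and at 0.86 without Control replicate 2. Of 13 further genes of the unfolded protein response tested, 9 lay above 0, with a median of 0.074. At an unadjusted edgeR p under 0.05, 4 were lower, beside 8.53% of all genes, and 1 was higher, beside 7.89% of all genes. The 4 were Ppp1r15a, Ppp1r15b, Asns and Sesn2, of which Ppp1r15b and Sesn2 were named after their values were seen. Ppp1r15a (GADD34), which reverses the block of translation that PERK sets, was at 346, 316, 309 and 158 CPM in Control replicates 1 to 4, and between 169 and 280 CPM in BMAd-DTA libraries, inside the Control range. Its log2 fold change was -0.49 (SE 0.18, edgeR adjusted p = 0.202), and without Control replicate 4 it was -0.69 (edgeR adjusted p = 0.0487). Asns, asparagine synthetase and a target of ATF4, was named after its values were seen. It had a log2 fold change of -0.47 (SE 0.10, edgeR adjusted p = 0.072) and a DESeq2 adjusted p of 0.00399, with 6 of 7 BMAd-DTA libraries below every Control library. Creb3, the founding gene of the CREB3 family, had a log2 fold change of 0.26 (SE 0.081, edgeR adjusted p = 0.136), with 7 of 7 above.

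Of 14 further COPII and exit genes 8 lay above 0, with a median of 0.061. Sec16b, a scaffold of ER exit sites, was at 14.8, 13.5, 16.2 and 12.4 CPM in Control replicates 1 to 4, and the BMAd-DTA libraries ran from 18.0 to 25.8 with a median of 20.4 CPM. Its groups did not overlap and the log2 fold change was 0.55 (SE 0.11, edgeR adjusted p = 0.0675), with a DESeq2 adjusted p of 0.000926 and an edgeR adjusted p of 0.039 to 0.213 over the libraries left out, the lowest without Control replicate 3. The log2 ratio of Sec16b to the more abundant Sec16a was -3.22 ± 0.27 (SD, n = 4) in Control and -2.64 ± 0.25 (SD, n = 7) in BMAd-DTA libraries. Sec24a was the lowest of this role at -0.075 (SE 0.082, edgeR adjusted p = 0.708). Of 13 further cargo receptors 9 lay above 0, from Lman2l at -0.12 (SE 0.089, edgeR adjusted p = 0.538) to Ergic1 at 0.22 (SE 0.072, edgeR adjusted p = 0.148), the latter with 7 of 7 BMAd-DTA libraries above every Control library. Of 16 further COPI and Golgi tether genes 13 lay above 0, with Copg2 the lowest at -0.091 (SE 0.076, edgeR adjusted p = 0.607).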

How the data were processed

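The authors checked the reads with FastQC 0.11.9, aligned them to mm10 with STAR and tested them with DESeq2, per the labels and the paper, and the annotation release is not given in the sources used here. The deposited values are whole counts of read pairs per gene, not normalized by the authors, in 1 merged table of 22600 genes and in per-library tables of 55401 genes. Columns and lines that name no gene were left out of library sizes.

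Counts were tested with edgeR 4.0.16 in R 4.3.3 (filterByExpr, TMM scaling, quasi-likelihood fit with genotype as the only term, two-sided), adjusted by Benjamini-Hochberg over 16496 genes, with a threshold of 0.05. The SE and the 95% interval of a log2 fold change are from the same fit. DESeq2 1.42.0, limma-voom (limma 3.58.1), a robust fit, other scalings and filters, per-library counts, a skeletal muscle score as covariate, removal of 26 hemoglobin and mitochondrial genes and each library left out in turn were the alternatives. The scripts were tested on simulated data in which 200 genes were changed. At a simulated log2 fold change of 0.5, edgeR recovered 22% of them with 1 false call, and DESeq2 39.5% with 14 false calls. At a simulated log2 fold change of 1, edgeR recovered 72% with 9 false calls, and DESeq2 79% with 26 false calls. Exon lengths and positions are from GENCODE M21 on GRCm38 and promoters from RefSeq. Hyou1, Manf, Atf6, Creb3l1, Sec61a1, Lman1 and Kdelr2 had no promoter entry. Intervals give the uncertainty of the fitted difference between the groups, while the SDs and ranges give the spread between these mice. Multimapping pairs are not in the counts.

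The members, lists, motifs and alternatives were chosen with earlier results of these data known. Values in every library are given for any member past the threshold, for up to 3 members of a role with the smallest unadjusted p under 0.05, or otherwise the 1 with the smallest, for the most abundant member of each role per kilobase, and always for Hspa5, Atf6, Ern1, Ddit3, Trib3 and Creb3l1. From the wider list the text names genes past the threshold and the 2 extremes of each role by log2 fold change, at a mean of at least 50 counts.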

Additional observations from a re-analysis of the deposited data

Results flagged for a closer look

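Of 78 checks of a member in 1 group, 3 found a library whose gap to its nearest neighbour was large for the range of the group, and chance alone flags about 1 in 20 such checks. Trib3 was at 5.20 CPM in Control replicate 3, with the next Control library at 3.30 CPM. Sec61b was at 72.1 CPM in BMAd-DTA replicate 6, with the next at 58.3 CPM. Sec13 was at 68.7 CPM in BMAd-DTA replicate 3, with the next at 63.4 CPM. The cause was not tested.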

How the results depend on the processing

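The number of genes called, 13 in the edgeR fit, was 845 with DESeq2, 20 with limma-voom, 32 with the robust fit, 20 with RLE scaling and 3 with the muscle score as a covariate, and ran from 0 to 292 when 1 library was left out. No gene was called with Control replicate 1 or 2 left out, nor with BMAd-DTA replicate 1 or 6 left out (967 to 1279 genes higher and 817 to 1347 lower at an unadjusted edgeR p under 0.05), whereas 292 were called with Control replicate 3 left out, 89 with Control replicate 4, 8 with BMAd-DTA replicate 3 and 3 with BMAd-DTA replicate 4 left out. The number of members called was 0 except with DESeq2, where it was 4, and without Control replicate 3, where it was 2, so that it ran from 0 to 2 when 1 library was left out. The cause was not tested. The median log2 fold change of the members ran from 0.042 to 0.10 over the libraries left out. The sign of values near 0 depended on the libraries. With 1 library left out, Hspa5 ran from -0.074 to 0.024, Hsp90b1 from -0.023 to 0.087, Calr from -0.12 to 0.023 and Pdia3 from -0.084 to 0.055. Creb3l1 ran from 0.87 to 1.28 and Kdelr3 from 0.85 to 1.15. Small values moved by over 1.5 times for several genes, among them Mia3 (0.038 without Control replicate 1, 0.17 without Control replicate 3), Kdelr1 (0.022 without BMAd-DTA replicate 6, 0.037 without Control replicate 3) and Copg2 (-0.014 without Control replicate 4, -0.061 without BMAd-DTA replicate 2). Others were Ern1 (0.025 to 0.099), Atf6 (-0.088 to -0.033), Pdia4 (0.046 to 0.12) and Canx (-0.20 to -0.094). Herpud1 (0.11 to 0.23), Ddit3 (-0.30 to -0.10), Sec24a (-0.13 to -0.034) and Lman2l (-0.16 to -0.062) also moved by over 1.5 times. No paired analysis was possible because the labels give no replicate numbers, and those used here only name the libraries.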
